A study of Mus musculus with 12 samples.

Results

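The RNA of liver sinusoidal endothelial cells (LSECs) was set against that of Hepa1-6 hepatoma cells taken from the same shared wells, to see which cell supplied each secreted factor and which carried its receptor. The 6 co-culture libraries of the series' 12 entered the comparison, 3 from LSECs and 3 from Hepa1-6 cells. The genes described are 319 members of a list of ligands and receptors, made of 149 ligands, 144 receptor subunits and 26 decoys and inhibitors, out of 45777 genes in the deposited table. They form 170 ligand and receptor pairs in 22 families. The co-cultured LSECs were primary mouse cells, 500000 per well, on the floor of a 12-well plate. The co-cultured Hepa1-6 cells, a mouse hepatoma cell line, were 100000 per well and sat above them in an insert with 3 μm pores, so that the cells shared medium but did not lie in 1 layer. After an overnight rest and washing, both shared DMEM with 2% serum for 24 h before RNA was taken, and no group carried a genetic change or a drug. The other 6 libraries were LSECs alone and Hepa1-6 cells alone, 3 each. The labels give each co-culture library 2 cell names, and the cell named first was taken as the one sequenced. They do not say that the numbered samples of a group came from separate cultures or animals, so p-values measure the spread between these samples, which may be technical.

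A secreted factor acts on a cell only if that cell carries its receptor, and many receptors need a partner subunit. LSECs line the liver's sinusoids, take up waste from blood and are known as a source of angiocrine factors such as Wnt2, R-spondin 3, Hgf and bone morphogenetic proteins for the neighbouring hepatocytes. Hepatocyte-like tumour cells make plasma proteins and are known to release angiogenic and inflammatory factors.

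The markers bore out the cell named first in all 6 libraries. All 20 sinusoidal endothelial markers were called higher in LSECs, with summed levels of 8212 to 10280 CPM (a gene's share of the library's counts, scaled by TMM) in LSECs and 174 to 181 CPM in Hepa1-6 cells. Albumin (Alb) averaged 10.3 CPM in LSECs and 2318 CPM in Hepa1-6 cells, and alpha-fetoprotein (Afp) averaged 1.81 CPM in LSECs and 1951 CPM in Hepa1-6 cells. Of 19 hepatoma and hepatocyte markers, 8 reached 1 CPM in every Hepa1-6 library and 4 were at 0 in all 3, so only part of a hepatocyte's secretory programme was there. Of the 15 that could be tested, 8 were called higher in Hepa1-6 cells. Another 4, Ttr, Ahsg, Serpina1a and Vtn, were called higher in LSECs, where they averaged 0.650 to 1.29 CPM. The LSEC libraries also held macrophage RNA, with all 20 macrophage and Kupffer cell markers at 1 CPM or more in each, their sum running from 3670 to 5052 CPM, against 24.6 to 25.3 CPM in Hepa1-6 cells, where 12 of the 20 were at 0. Total counts were 36590767 to 43941801 in LSEC libraries and 32761492 to 42380482 in Hepa1-6 libraries. LSEC replicate 1 stood apart from replicates 2 and 3, with a chi-square per degree of freedom over genes of 182 and 184 against them, where replicates 2 and 3 gave 4.16 and the Hepa1-6 pairs 3.22 to 5.01. Without it no call on a listed gene was lost or reversed, 15 were gained, and 6 folds, those of Il34, Btc, Proc, Il18rap, Fgfr4 and Chrd, moved by over 1.5 times.

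More listed ligands and more listed receptor subunits were higher in LSECs than in Hepa1-6 cells. A gene was called when edgeR's quasi-likelihood test gave a Benjamini-Hochberg adjusted p under 0.05 over all 16334 genes tested, and 74.0% of them were called, 39.1% towards LSECs and 34.9% towards Hepa1-6 cells. Of 149 ligands 124 could be tested, and 72 were higher in LSECs and 44 in Hepa1-6 cells. Of 144 receptor subunits 122 could be tested, and 76 were higher in LSECs and 33 in Hepa1-6 cells. LSECs and Hepa1-6 cells were apart in every library for 248 of the 267 listed genes tested, as they were for 79.9% of all tested genes. The median log2 fold change, LSECs over Hepa1-6 cells, was 2.06 for the ligands and 1.82 for the receptor subunits, against 0.08 for all tested genes. Tested members are those with reads enough in at least 1 cell, so these counts leave out 52 listed genes with too few reads in both. The lists were drawn up for liver vessels and tumours, with earlier results of these data known. Their counts and medians describe the lists only, and not ligands or receptors as a class.

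A pair's supplier was the cell with a called ligand level at least 4 times that of the other, a step that 19.4% of all tested genes passed towards LSECs and 15.4% towards Hepa1-6 cells. A cell held a receptor when each of its subunits reached 1 CPM in all 3 libraries. LSECs supplied the ligand of 74 pairs, Hepa1-6 cells that of 35, and 61 had no such supplier. Both cells held the receptor in 84 pairs, LSECs alone in 36, Hepa1-6 cells alone in 3 and neither in 47. Of the 74 pairs with an LSEC ligand, the receptor was in LSECs alone in 18, in Hepa1-6 cells alone in 1 and in both in 35. Of the 35 with a Hepa1-6 ligand, it was in LSECs alone in 5, in Hepa1-6 cells alone in 1 and in both in 17. The 5 pairs that ran from Hepa1-6 cells to LSECs alone were Kitl to Kit, Angpt1 to Tek, Anxa1 to Fpr1, Igf2 to Igf1r and Sema3c to Nrp1 with Plxnd1. The last of these rested on Plxnd1 falling just short of 1 CPM in 1 Hepa1-6 library. The pair that ran from LSECs to Hepa1-6 cells alone was Sema3f to Nrp2 with Plxna3. CPM give a gene's share of a library's RNA. They do not measure secreted protein or the amount per well, and 5-fold fewer Hepa1-6 cells were plated. Fewer cells of a type and less RNA per cell cannot be told apart in these bulk libraries.

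**Figure D1:**
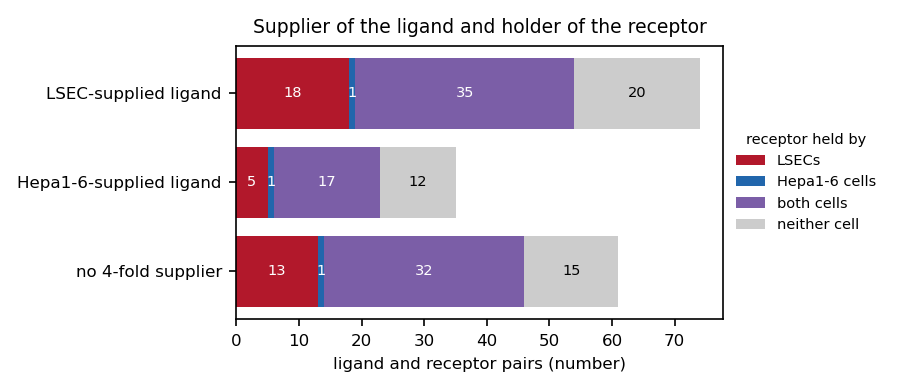
Number of ligand and receptor pairs (horizontal axis) by the cell that supplied the ligand (bars) and the cells that held the receptor (colours). The bar of LSEC-supplied ligands holds 74 pairs and that of Hepa1-6-supplied ligands 35, and receptors held by Hepa1-6 cells alone make up 1 pair in each bar.

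On a per-length scale, the most abundant listed ligands of LSECs were Ccl2 at 3339 ± 234 TPM (a share of transcripts corrected for length; mean and SD, n = 3), Apoe at 2197 ± 541 TPM, Ccl3 at 958 ± 155 TPM, Edn1 at 958 ± 159 TPM and Angpt2 at 900 ± 227 TPM. Those of Hepa1-6 cells were Rbp4 at 1189 ± 31.1 TPM, Apoe at 876 ± 31.7 TPM, Trf at 728 ± 18.8 TPM, Mif at 601 ± 8.70 TPM and Thbs1 at 395 ± 24.6 TPM. A monocyte chemokine, a lipid carrier and vessel peptides thus headed the LSEC order, and plasma carriers headed the Hepa1-6 order. Ccl3, Edn1 and Angpt2 lay within 1 SD of each other.

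**Figure D2:**
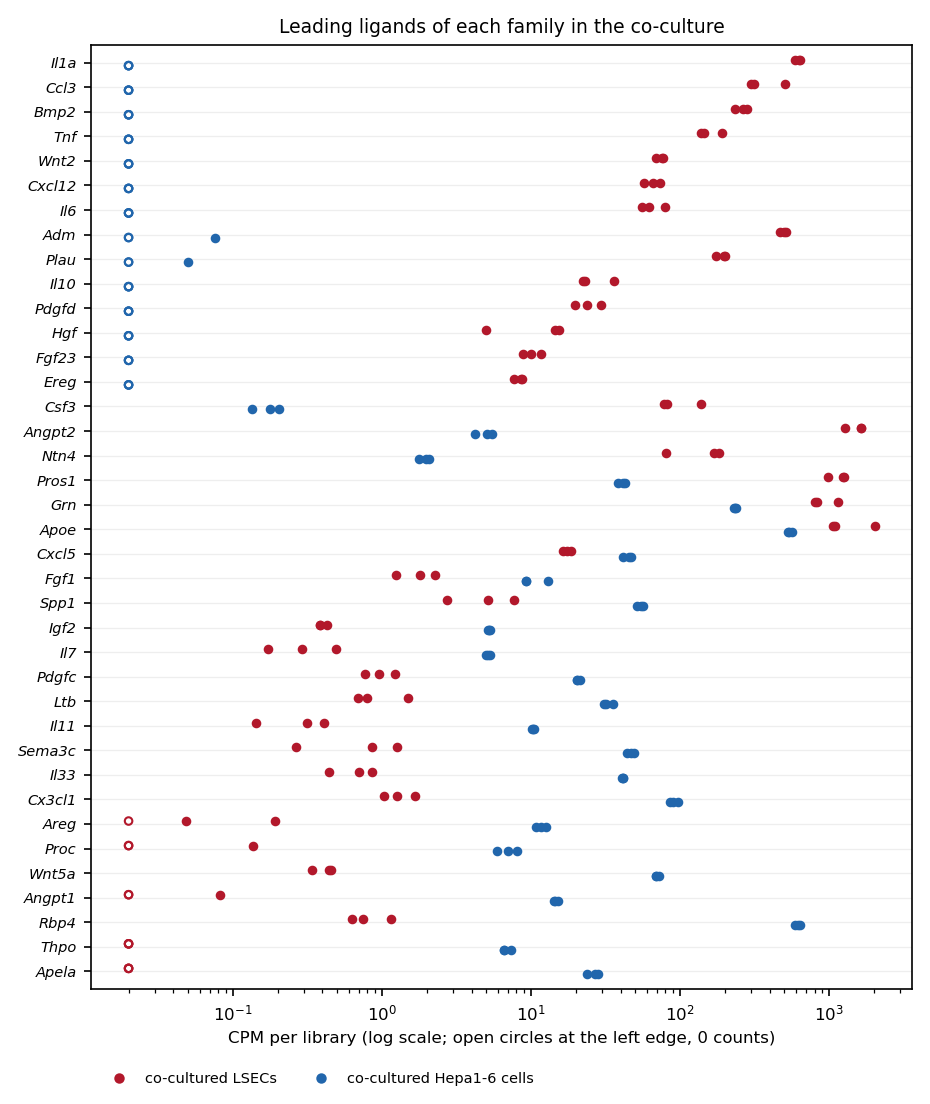
CPM per library (log scale) of the 38 ligands that led their family towards either cell, each with 3 points for LSECs (red) and 3 for Hepa1-6 cells (blue), ordered by fold change. Open circles at the left edge stand for 0 counts. From Il1a down to Ereg all or most Hepa1-6 points are open, and Thpo and Apela at the foot are at 0 in all 3 LSEC libraries.

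The interleukin-1 ligands divided between the cells. Il1a, an alarm cytokine, stood at 636, 633 and 594 CPM in LSECs and at 0 in all 3 Hepa1-6 libraries, at least 24407-fold higher in LSECs against a floor of 3 counts over the Hepa1-6 group. Il1b, its inflammasome-processed relative, stood at 575, 354 and 335 CPM in LSECs and at 0 in all 3 Hepa1-6 libraries. Both were absent from the counts of 1 cell and abundant in the other. Il33, a nuclear alarmin of barrier tissues, went the other way, with 0.700, 0.440 and 0.860 CPM in LSECs and 41.4, 41.6 and 41.0 CPM in Hepa1-6 cells (log2 fold change -5.93 ± 0.22 SE, edgeR adjusted p = 1.7e-06). Il18 was modestly higher in LSECs, at 16.3, 10.1 and 9.69 CPM, against 3.09, 3.96 and 2.71 CPM in Hepa1-6 cells.

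The interleukin-1 receptor was held by both cells. Il1r1, the signalling chain, stood at 85.5, 135 and 144 CPM in LSECs and at 45.0, 46.1 and 45.9 CPM in Hepa1-6 cells. Its partner Il1rap stood at 11.0, 20.6 and 18.7 CPM in LSECs and at 5.18, 4.39 and 4.65 CPM in Hepa1-6 cells. Both chains were called higher in LSECs and neither group overlapped. The Il33 receptor chain Il1rl1 was at 0.385 to 1.12 CPM in LSECs and 0 to 0.294 CPM in Hepa1-6 cells and missed the threshold (edgeR adjusted p = 0.052), so neither cell held it at 1 CPM. The Il18 receptor was split, as Il18r1 was at 0 to 0.172 CPM in LSECs and 0 in Hepa1-6 cells, whereas its partner Il18rap was at 0 to 0.344 CPM in LSECs and 6.33 to 8.06 CPM in Hepa1-6 cells.

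Macrophage marker RNA moved with these cytokines, as it was in every LSEC library and at most 25.3 CPM in sum in Hepa1-6 cells. The same holds for Tnf, Il10, Il12b, the LSEC-high CC chemokines and the receptors Il10ra and Fpr1 below. The part of macrophage RNA in their LSEC levels was not tested.

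The interleukin-6 family was also supplied from both sides. Il6, an acute-phase inducer, stood at 78.9, 61.6 and 55.3 CPM in LSECs and at 0 in all 3 Hepa1-6 libraries, at least 2566-fold higher in LSECs. Il11, a relative linked to fibrosis, stood at 0.314, 0.413 and 0.143 CPM in LSECs and at 10.3, 10.2 and 10.5 CPM in Hepa1-6 cells (log2 fold change -5.11 ± 0.30 SE, edgeR adjusted p = 8.8e-06). Each was thus near 0 in the other cell. Lif and Clcf1 were higher in Hepa1-6 cells by smaller steps, with log2 fold changes of -0.97 and -1.99. The shared signal chain Il6st (gp130) was in both, at 611, 1085 and 1184 CPM in LSECs and 89.3, 88.7 and 91.8 CPM in Hepa1-6 cells. The binding chain Il6ra, which decides who hears Il6 directly, was at 4.59, 13.6 and 13.2 CPM in LSECs and 19.7, 20.2 and 19.4 CPM in Hepa1-6 cells. The groups for Il6ra did not overlap, but the test missed the threshold (edgeR adjusted p = 0.071), and without LSEC replicate 1 it passed (edgeR adjusted p = 2.8e-05) with a smaller log2 fold change of -0.56. The Il11 receptor Il11ra1 was at 51.3, 29.6 and 28.9 CPM in LSECs and 7.12, 6.53 and 6.28 CPM in Hepa1-6 cells. The Lif receptor Lifr was at 42.9 to 54.9 CPM in LSECs and 228 to 239 CPM in Hepa1-6 cells. Osmr (outside the rule by which genes were named) was higher in LSECs, at 36.2 to 55.4 CPM against 4.36 to 4.82 CPM in Hepa1-6 cells, while its ligand Osm was under 1 CPM in both.

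The interleukin-23 subunits were highest in opposite cells. Il12b, the chain shared by interleukin-12 and interleukin-23, stood at 23.4, 22.8 and 17.7 CPM in LSECs and at 0 in all 3 Hepa1-6 libraries. Il23a, its partner in interleukin-23, stood at 1.62, 1.60 and 1.66 CPM in LSECs and at 13.7, 12.9 and 14.1 CPM in Hepa1-6 cells (log2 fold change -3.04 ± 0.13 SE, edgeR adjusted p = 2.4e-06). Il12a, the partner in interleukin-12, was at 0.169 to 0.631 CPM in LSECs and 0 in Hepa1-6 cells. Neither cell held the interleukin-23 receptor, since Il23r was at 0 to 0.0860 CPM in LSECs and 0 in Hepa1-6 cells. Il10, a restraining cytokine, was at 36.0, 22.4 and 23.2 CPM in LSECs and 0 in Hepa1-6 cells. Its specific chain Il10ra was at 10.8, 10.7 and 11.5 CPM in LSECs and 0 in Hepa1-6 cells, so LSECs alone held the complete receptor. Il7 was at 0.172 to 0.495 CPM in LSECs and 4.97 to 5.32 CPM in Hepa1-6 cells, with Il7r under 1 CPM in both. Il4 and Il13 were at 0 in all 6 libraries.

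Among the CXC chemokines, the ones that call neutrophils were shared in opposite proportions. Cxcl1 stood at 283, 244 and 236 CPM in LSECs and at 34.6, 38.0 and 32.4 CPM in Hepa1-6 cells (log2 fold change 2.88 ± 0.12 SE, edgeR adjusted p = 2.1e-06). Cxcl2 stood at 271, 219 and 205 CPM in LSECs and at 8.85, 9.25 and 9.13 CPM in Hepa1-6 cells (log2 fold change 4.69 ± 0.14 SE, edgeR adjusted p = 8.8e-07). LSECs were the higher cell for both. Cxcl3 stood at 46.6, 31.8 and 27.0 CPM in LSECs and at 85.3, 94.0 and 86.4 CPM in Hepa1-6 cells (log2 fold change -1.32 ± 0.20 SE, edgeR adjusted p = 9.9e-04). Cxcl5 stood at 18.6, 17.5 and 16.3 CPM in LSECs and at 47.3, 45.8 and 41.6 CPM in Hepa1-6 cells (log2 fold change -1.34 ± 0.11 SE, edgeR adjusted p = 3.2e-05). The groups overlapped for none of the 4. Cxcl1, Cxcl2 and Cxcl3 are related neighbours on chromosome 5, and how reads were divided among them is not given in the sources used here. Their shared receptor Cxcr2 was at 0 in LSECs and at most 0.0588 CPM in Hepa1-6 cells, so neither cell held it.

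The promoters of these chemokines, of Il6 and of Il11 are shown because these inflammatory ligands were higher in opposite cells. The sequences are the 250 bases before the RefSeq start of each gene on GRCm38.p6, 5′ to 3′ on the gene's strand, and were chosen after the values were seen. Capitals mark matches, on either strand, to GGG, any 2 bases and TTTCC, an NF-κB-like motif, or to TGANTCA, an AP-1-like motif. No 2 matches overlap.
Cxcl1, chr5:90890995-90891244, plus strand: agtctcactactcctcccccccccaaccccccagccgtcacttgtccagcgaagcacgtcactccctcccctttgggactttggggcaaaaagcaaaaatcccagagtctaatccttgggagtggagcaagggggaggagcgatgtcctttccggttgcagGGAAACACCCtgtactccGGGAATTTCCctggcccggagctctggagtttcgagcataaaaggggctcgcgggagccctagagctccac
Cxcl2, chr5:90903649-90903898, plus strand: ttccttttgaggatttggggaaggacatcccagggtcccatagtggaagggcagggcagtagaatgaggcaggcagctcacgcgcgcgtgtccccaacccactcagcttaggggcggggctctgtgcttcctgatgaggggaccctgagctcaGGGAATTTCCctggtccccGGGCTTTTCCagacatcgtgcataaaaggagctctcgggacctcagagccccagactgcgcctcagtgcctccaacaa
Cxcl3, chr5:90785851-90786100, plus strand: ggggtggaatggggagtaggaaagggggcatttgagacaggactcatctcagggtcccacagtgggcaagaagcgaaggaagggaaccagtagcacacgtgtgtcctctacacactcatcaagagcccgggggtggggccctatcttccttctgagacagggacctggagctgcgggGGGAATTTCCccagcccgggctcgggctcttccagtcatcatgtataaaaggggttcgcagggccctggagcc
Il6, chr5:30012864-30013113, plus strand: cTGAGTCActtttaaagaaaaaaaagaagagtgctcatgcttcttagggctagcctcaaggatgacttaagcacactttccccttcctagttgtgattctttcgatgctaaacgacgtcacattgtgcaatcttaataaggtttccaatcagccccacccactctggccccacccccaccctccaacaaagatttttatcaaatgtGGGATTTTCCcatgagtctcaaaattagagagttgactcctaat
Il11, chr7:4778142-4778391, minus strand: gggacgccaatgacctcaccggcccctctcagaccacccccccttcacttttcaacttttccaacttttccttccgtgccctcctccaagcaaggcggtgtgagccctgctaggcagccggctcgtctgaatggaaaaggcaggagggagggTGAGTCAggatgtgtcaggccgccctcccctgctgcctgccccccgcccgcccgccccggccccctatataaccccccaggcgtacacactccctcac
The NF-κB-like letters occurred 2 times for Cxcl1, 2 times for Cxcl2, and 1 time each for Cxcl3 and Il6, against 1.41% of all 32851 promoter windows of the same length with at least 1 match. They began 73 bases before the start for Cxcl3 and 44 bases before it for Il6. The Il11 window, which belongs to the transcript that carried nearly all Il11 TPM in Hepa1-6 cells, had an AP-1-like match 98 bases before the start, and Il6 had another 249 bases before it, a motif found in 6.75% of windows. The NF-κB-like letters lay before both the LSEC-high Cxcl1 and Cxcl2 and the Hepa1-6-high Cxcl3. Of the listed ligands called at least 4-fold higher, 5 of 44 with a RefSeq window had them among the LSEC-high ones and 2 of 23 among the Hepa1-6-high ones, against 1.65% of all genes. A match describes letters in a window and does not show that a factor binds.

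The remaining CXC chemokines were mostly from LSECs. Cxcl12, the ligand that retains blood cells, was at 57.6, 73.2 and 66.2 CPM in LSECs and 0 in all 3 Hepa1-6 libraries. Its receptor Cxcr4 was at 95.5, 133 and 141 CPM in LSECs and 0 in Hepa1-6 cells, and its scavenger Ackr3 at 4.54 to 5.73 CPM in LSECs and 0 to 0.147 CPM in Hepa1-6 cells. Ligand and receptors were therefore all on the LSEC side. Cxcl9, induced by interferon-γ in macrophages, was at 9.49 to 13 CPM in LSECs and 0 to 0.126 CPM in Hepa1-6 cells. Cxcl10 did not pass the test, with 52.3, 27.8 and 32.5 CPM in LSECs and 45.4, 43.0 and 42.2 CPM in Hepa1-6 cells (edgeR adjusted p = 0.47). Without LSEC replicate 1 it was called higher in Hepa1-6 cells (log2 fold change -0.53, edgeR adjusted p = 1.1e-05).

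The CC chemokines came largely from LSECs, and neither cell held a receptor listed for them by the limit of 1 CPM in all 3 libraries. Ccl3, which calls monocytes and T cells, stood at 506, 316 and 301 CPM in LSECs and at 0 in all 3 Hepa1-6 libraries. Ccl4 stood at 225, 113 and 114 CPM and Ccl6 at 108, 75.8 and 74.7 CPM in LSECs, and both were at 0 in Hepa1-6 cells. The LSEC libraries carried all 3 and the Hepa1-6 libraries none. Ccl2, named after its values were seen as the most abundant LSEC ligand per length, stood at 1634, 1197 and 1130 CPM in LSECs and at 58.3, 65.2 and 65.3 CPM in Hepa1-6 cells. Hepa1-6 cells led for Ccl20, which draws lymphocytes that bear Ccr6, with 2.08, 1.02 and 1.35 CPM in LSECs and 12.3, 12.8 and 11.9 CPM in Hepa1-6 cells. They also led for Cx3cl1 (fractalkine), which had 1.04, 1.27 and 1.66 CPM in LSECs and 85.7, 89.2 and 96.9 CPM in Hepa1-6 cells (log2 fold change -6.09 ± 0.20 SE, edgeR adjusted p = 1.0e-06). Of 12 CC and CX3C ligands tested, 8 were higher in LSECs and 3 in Hepa1-6 cells. None of their 9 receptors reached 1 CPM in all libraries of either cell. Ccr1 was at 0.831 to 2.12 CPM in LSECs and 0 in Hepa1-6 cells, Ccr6 was at 0 in all 6 libraries and Cx3cr1 at or below 0.172 CPM.

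Of 7 colony-stimulating and stem cell factors tested, 3 were higher in LSECs and 3 in Hepa1-6 cells, and all 6 receptor subunits tested were higher in LSECs. Kitl, the stem cell factor, stood at 44.5, 74.9 and 78.1 CPM in LSECs and at 287, 291 and 282 CPM in Hepa1-6 cells (log2 fold change -2.11 ± 0.22 SE, edgeR adjusted p = 1.5e-04). Its receptor Kit stood at 345, 603 and 636 CPM in LSECs and at 0 in all 3 Hepa1-6 libraries, at least 20751-fold higher in LSECs. The ligand was in both cells and higher in the hepatoma, and the receptor was in LSECs. By transcript, NM_013598 of Kitl had 7.66, 17.4 and 14.1 TPM in LSECs and 97.2, 93.0 and 101 TPM in Hepa1-6 cells. A second RefSeq transcript, NM_001347156, had 6.89, 11.5 and 11.5 TPM in LSECs and 5.49, 8.49 and 7.49 TPM in Hepa1-6 cells, and there the groups overlapped. The division of reads among overlapping transcripts is an estimate, and in replicate 2 of lone Hepa1-6 cells it gave these transcripts 31.3 and 29.2 TPM.

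The 2 ligands of Csf1r, the macrophage growth receptor, had opposite suppliers. Csf1 stood at 810, 998 and 932 CPM in LSECs and at 86.8, 94.0 and 96.8 CPM in Hepa1-6 cells (log2 fold change 3.32 ± 0.13 SE, edgeR adjusted p = 1.5e-06). Il34 stood at 0.531, 0.165 and 0.258 CPM in LSECs and at 15.1, 16.5 and 17.3 CPM in Hepa1-6 cells (log2 fold change -5.62 ± 0.34 SE, edgeR adjusted p = 1.1e-05, and -6.26 without LSEC replicate 1). Csf1r itself was at 125, 131 and 123 CPM in LSECs and 1.29, 2.45 and 2.44 CPM in Hepa1-6 cells. Csf1r is also among the macrophage markers summed above, and the part of macrophage RNA in its LSEC level was not tested. Csf3, the neutrophil growth factor, was at 139, 82.4 and 78.0 CPM in LSECs and 0.206, 0.176 and 0.136 CPM in Hepa1-6 cells. Its receptor Csf3r was at 33.5, 33.8 and 34.8 CPM in LSECs and 0 in Hepa1-6 cells, while 10 neutrophil markers summed to 32.9 to 43.4 CPM in LSECs, and to 0.206 to 0.529 CPM in Hepa1-6 cells. Mmp8 at an average of 27.2 CPM and S100a8 at 10.1 CPM made up nearly all of the LSEC sum, and S100a9 was at 0.365 CPM and Ly6g and Retnlg at 0. The part of neutrophils in the Csf3r level was not tested. Thpo, the platelet factor made by liver, was at 0 in LSECs and 6.56, 7.34 and 6.64 CPM in Hepa1-6 cells.

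In the tumour necrosis factor superfamily, Tnf stood at 192, 144 and 138 CPM in LSECs and at 0 in all 3 Hepa1-6 libraries, at least 6223-fold higher in LSECs. Tnfrsf1a, the receptor found on most cells, was at 378, 314 and 319 CPM in LSECs and 160, 167 and 161 CPM in Hepa1-6 cells. Tnfrsf1b was at 232, 224 and 201 CPM in LSECs and 15, 15.9 and 20.2 CPM in Hepa1-6 cells. Hepa1-6 cells therefore held both Tnf receptors but no Tnf counts. Tnfsf10 (TRAIL), a death ligand, was at 28.3 to 44.3 CPM in LSECs and 0.126 to 0.316 CPM in Hepa1-6 cells, and its receptor Tnfrsf10b was at 89.0 to 114 CPM in LSECs and 72.0 to 75.1 CPM in Hepa1-6 cells. Ltb, a lymphoid organiser, was at 1.5, 0.798 and 0.688 CPM in LSECs and 31.2, 31.9 and 35.4 CPM in Hepa1-6 cells (log2 fold change -5.01 ± 0.29 SE, edgeR adjusted p = 8.6e-06). Its receptor Ltbr did not pass the test, at 162 to 239 CPM in LSECs and 154 to 158 CPM in Hepa1-6 cells (edgeR adjusted p = 0.10), and passed without LSEC replicate 1 at a log2 fold change of 0.11. Of 8 receptors tested here 6 were higher in LSECs and none in Hepa1-6 cells. Interferons β and γ (Ifnb1 and Ifng) did not exceed 0.0724 CPM in any of the 6 libraries, while all 4 interferon receptor subunits were held by both cells.

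Of 7 vessel growth factor and angiopoietin ligands tested, 3 were higher in LSECs and 4 in Hepa1-6 cells, while all 5 receptor subunits were higher in LSECs. LSECs alone held Kdr and Tek, and both cells held Flt1, Flt4 and Nrp1. Vegfa, the main endothelial growth factor, stood at 18.1, 20.2 and 20.5 CPM in LSECs and at 52.4, 49.3 and 48.0 CPM in Hepa1-6 cells (log2 fold change -1.33 ± 0.10 SE, edgeR adjusted p = 2.9e-05). Pgf, a relative paired here with Flt1, stood at 101, 73.5 and 71.8 CPM in LSECs and at 0.529, 0.656 and 0.745 CPM in Hepa1-6 cells (log2 fold change 6.99 ± 0.23 SE, edgeR adjusted p = 1.1e-06). Kdr (VEGFR2), the chief signalling receptor, stood at 680, 1149 and 1208 CPM in LSECs and at 0, 0 and 0.0904 CPM in Hepa1-6 cells. Each of the 3 was separated without overlap, with the Vegfa gap the narrowest. Flt1 (VEGFR1) was at 83.5, 141 and 153 CPM in LSECs and 1.44, 1.87 and 2.17 CPM in Hepa1-6 cells. Its gene is known to give a full-length receptor and a shorter soluble form that traps ligand. Full-length NM_010228 had 17.5, 37.4 and 40.3 TPM in LSECs and 0.147, 0.221 and 0.188 TPM in Hepa1-6 cells. NM_001363135, which ends 73555 bases earlier in the gene, had 4.09, 8.18 and 9.73 TPM in LSECs and 0.251, 0.349 and 0.509 TPM in Hepa1-6 cells. It was the smaller of the 2 in LSECs and the larger in co-cultured Hepa1-6 cells, where both were low. In lone Hepa1-6 cells the order varied, with NM_001363135 at 0.370, 0.191 and 0.262 TPM and NM_010228 at 0.235, 0.222 and 0.341 TPM. The division of reads between these overlapping transcripts is an estimate. Vegfc, a lymphatic growth factor, was higher in Hepa1-6 cells (log2 fold change -0.93), and its receptor Flt4 was at 529 to 787 CPM in LSECs and 32.5 to 39.8 CPM in Hepa1-6 cells.

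The angiopoietins were parted by cell. Angpt2, known as the context-dependent antagonist, stood at 1283, 1647 and 1653 CPM in LSECs and at 5.12, 5.45 and 4.22 CPM in Hepa1-6 cells (log2 fold change 8.29 ± 0.21 SE, edgeR adjusted p = 5.4e-07). Angpt1, the agonist that keeps vessels quiescent, stood at 0, 0.0825 and 0 CPM in LSECs and at 14.3, 15.2 and 14.4 CPM in Hepa1-6 cells (log2 fold change -8.92 ± 0.50 SE, edgeR adjusted p = 7.4e-06). Their common receptor Tek was at 156, 248 and 269 CPM in LSECs and 0 in all 3 Hepa1-6 libraries. The antagonist and the receptor shared a cell, and the agonist came from the other.

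The vasoactive peptides Edn1, Adm and Apln ranked 4, 8 and 9 among the listed ligands of LSECs by TPM. The adrenomedullin receptor differed in form between the cells. Adm, a vessel-relaxing peptide, stood at 518, 500 and 470 CPM in LSECs and at 0, 0.0756 and 0 CPM in Hepa1-6 cells. Edn1, a constrictor, stood at 936, 1018 and 1001 CPM in LSECs and at 11.1, 10.9 and 11.3 CPM in Hepa1-6 cells, and Apln stood at 857, 1087 and 1075 CPM in LSECs and at 2.65, 3.43 and 2.87 CPM in Hepa1-6 cells. All 3 were LSEC products here. Adm needs Calcrl with a Ramp partner. Calcrl was at 136, 254 and 258 CPM in LSECs and 63.8, 58.2 and 65.9 CPM in Hepa1-6 cells. Ramp2 stood at 65.7, 35.7 and 37.8 CPM in LSECs and at 0 in all 3 Hepa1-6 libraries, whereas Ramp3 stood at 2.00, 2.50 and 1.49 CPM in LSECs and at 58.8, 56.4 and 49.1 CPM in Hepa1-6 cells (log2 fold change -4.76 ± 0.21 SE, edgeR adjusted p = 2.9e-06). Calcrl was thus in both cells, with Ramp2 in LSECs alone and Ramp3 higher in Hepa1-6 cells. The endothelin receptor Ednrb was at 148, 246 and 257 CPM in LSECs and 0 in Hepa1-6 cells, and Ednra was at most 0.290 CPM. The Apln receptor Aplnr was at most 0.145 CPM in any library, which left Apln and the Hepa1-6 ligand Apela (0 CPM in LSECs and 28.2, 27.0 and 23.8 CPM in Hepa1-6 cells) without a receptor in either. Agt, the angiotensin precursor, was at 0 in LSECs and 7.05 to 8.12 CPM in Hepa1-6 cells, with Agtr1a at or below 0.413 CPM.

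**Figure D3:**
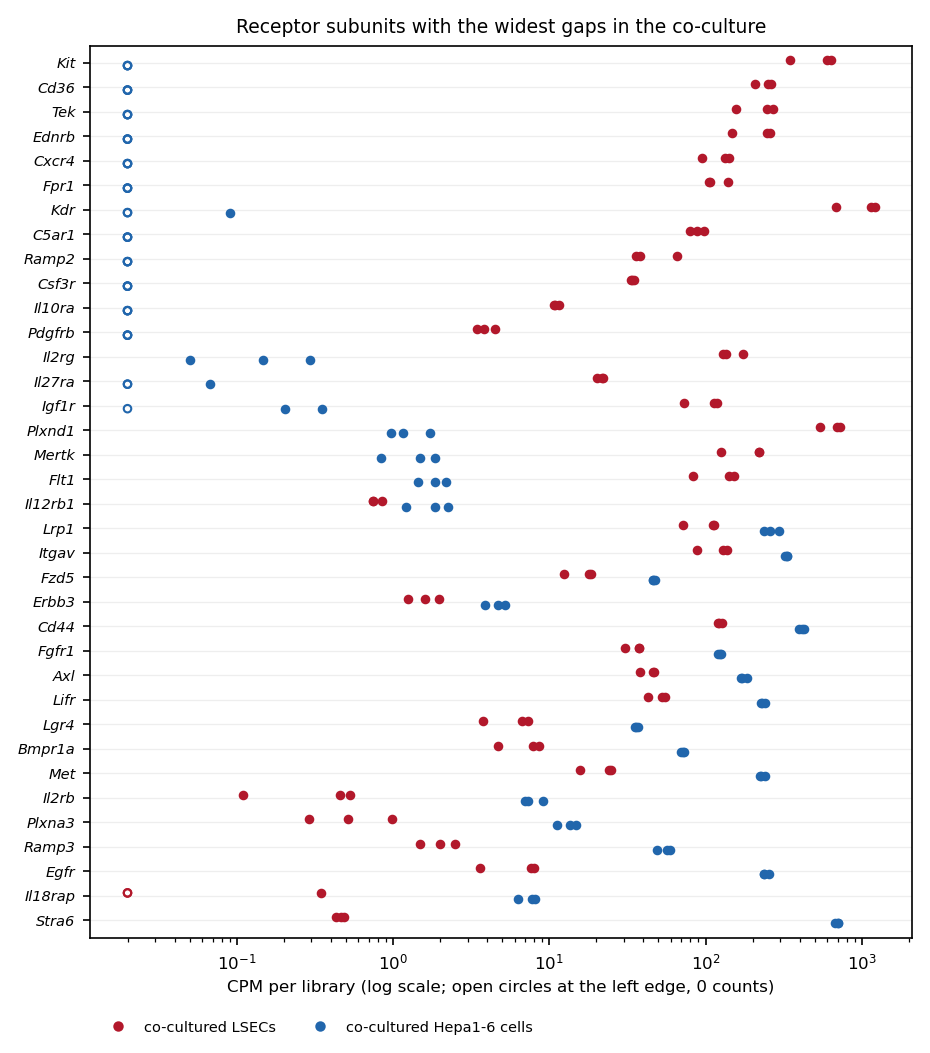
CPM per library (log scale) of 36 named receptor subunits, 18 LSEC-high and 18 Hepa1-6-high, with 3 points per cell. Open circles at the left edge stand for 0 counts. Kit, Tek, Ednrb and Cxcr4 are at 0 in all 3 Hepa1-6 libraries, and among the Hepa1-6-high subunits most also lie above 1 CPM in LSECs.

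The growth factor receptors of epithelial cells were a group in which Hepa1-6 cells led. Hgf, which drives hepatocyte growth, stood at 4.97, 15.5 and 14.6 CPM in LSECs and at 0 in all 3 Hepa1-6 libraries. Its receptor Met stood at 15.8, 24.7 and 24.2 CPM in LSECs and at 228, 222 and 240 CPM in Hepa1-6 cells (log2 fold change -3.40 ± 0.20 SE, edgeR adjusted p = 8.7e-06). The Hgf transcript was in LSECs and most of its receptor in the hepatoma, with LSEC replicate 1 lowest for both. Egfr, the epidermal growth factor receptor, stood at 3.60, 7.67 and 8 CPM in LSECs and at 238, 236 and 256 CPM in Hepa1-6 cells (log2 fold change -5.23 ± 0.33 SE, edgeR adjusted p = 1.3e-05). Areg, Btc and Nrg1 were higher in Hepa1-6 cells, with log2 fold changes of -7.12, -5.01 and -3.53, and that of Btc was -5.62 without LSEC replicate 1. Ereg alone of the 8 family ligands was called higher in LSECs, at 7.73, 8.53 and 8.69 CPM against 0 in all 3 Hepa1-6 libraries. Hepa1-6 cells led for 6 of these 8 ligands and for all 3 receptors tested.

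Of 5 fibroblast growth factor receptor subunits tested, 4 were higher in Hepa1-6 cells and 1, Fgfr3, in LSECs, at 1.95 to 2.83 CPM against 0.994 to 1.51 CPM in Hepa1-6 cells. Fgfr1 was at 30.6 to 37.7 CPM in LSECs and 120 to 126 CPM in Hepa1-6 cells, and Fgfr2 and Fgfr4 (outside the rule) were at 2.10 to 3.00 and 0 to 0.217 CPM in LSECs and at 47.7 to 49.1 and 69.8 to 72.5 CPM in Hepa1-6 cells. The hepatoma also had Fgf1, with a log2 fold change of -2.55. Fgf23, a bone hormone for phosphate, was at 11.7, 10.1 and 8.89 CPM in LSECs and 0 in all 3 Hepa1-6 libraries, and its co-receptor Kl was at 0 in all 6. Fgf15 and Fgf21 were at 0 as well.

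Among the insulin-like and platelet-derived growth factors, 1 pair, Igf2 to Igf1r, ran from Hepa1-6 cells to LSECs alone. Igf2, a fetal growth factor, stood at 0.386, 0.385 and 0.430 CPM in LSECs and at 5.2, 5.32 and 5.13 CPM in Hepa1-6 cells (log2 fold change -3.68 ± 0.18 SE, edgeR adjusted p = 3.8e-06). Its signalling receptor Igf1r stood at 72.7, 113 and 119 CPM in LSECs and at 0, 0.353 and 0.203 CPM in Hepa1-6 cells. The hepatoma thus had Igf2 and hardly any Igf1r. Igf1, outside the naming rule and a ligand of the same receptor, was at 1.95 to 3.65 CPM in LSECs and 0 in Hepa1-6 cells. Pdgfb was at 348, 290 and 287 CPM in LSECs and 18.1, 19.2 and 21.4 CPM in Hepa1-6 cells, Pdgfd at 19.9 to 29.8 CPM in LSECs and 0 in Hepa1-6 cells, and Pdgfc at 0.774 to 1.23 CPM in LSECs and 20.3 to 21.5 CPM in Hepa1-6 cells. Pdgfra, the receptor listed for Pdgfc, was held by both cells and did not pass the test, at 5.55 to 7.83 CPM in LSECs and 7.32 to 10 CPM in Hepa1-6 cells (edgeR adjusted p = 0.24). Pdgfrb, the receptor of Pdgfb and Pdgfd and a pericyte and stellate cell gene, was at 3.47 to 4.49 CPM in LSECs and 0 in Hepa1-6 cells. Among 15 stellate and fibroblast genes, 11 were at 1 CPM or above throughout the LSEC libraries, summing to 111 to 125 CPM, against 5 of 15 and 1917 to 1964 CPM in Hepa1-6 cells, where Dcn made up an average of 1929 CPM. The part of such cells in the LSEC Pdgfrb level was not tested.

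All 11 ligands of the transforming growth factor β, activin and bone morphogenetic protein group were called higher in LSECs, 9 of them at least 4-fold. Bmp2, an iron-sensing signal to hepatocytes, stood at 236, 266 and 281 CPM in LSECs and at 0 in all 3 Hepa1-6 libraries, at least 10258-fold higher in LSECs. Bmp6, its partner in that role, stood at 423, 450 and 465 CPM in LSECs and at 0.118, 0.101 and 0 CPM in Hepa1-6 cells. Inhbb, an activin subunit, stood at 66.3, 77.6 and 74.2 CPM in LSECs and at 0.706, 0.756 and 0.745 CPM in Hepa1-6 cells. All 3 were separated from Hepa1-6 cells by wide gaps in every library. The receptors were in both cells in unlike mixtures. Bmpr1a, a type I receptor of Bmp2, was at 4.68, 8.64 and 7.86 CPM in LSECs and 72.5, 69.7 and 72.2 CPM in Hepa1-6 cells (log2 fold change -3.32 ± 0.24 SE, edgeR adjusted p = 2.3e-05). Its type II partner Bmpr2 was at 201, 399 and 419 CPM in LSECs and 69.7, 76.4 and 77.5 CPM in Hepa1-6 cells. Acvr1, a type I receptor for Bmp6, was at 60.4 to 81.8 CPM in LSECs and 23.5 to 28.3 CPM in Hepa1-6 cells. Acvr2a did not pass the test at 17.1 to 30.1 CPM in LSECs and 21.2 to 24.9 CPM in Hepa1-6 cells (edgeR adjusted p = 0.63). Hamp (hepcidin), the hepatocyte target of this axis, was at 0 to 0.287 CPM in LSECs and 0 in all 3 Hepa1-6 libraries.

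Of 3 Wnt and R-spondin ligands tested, 2 were higher in LSECs and 1 in Hepa1-6 cells, and of 8 receptor subunits 2 were higher in LSECs and 5 in Hepa1-6 cells. Wnt2, a central-vein Wnt, stood at 76.4, 68.7 and 76.5 CPM in LSECs and at 0 in all 3 Hepa1-6 libraries, at least 2905-fold higher in LSECs. Rspo3, which amplifies Wnt signals, stood at 36.0, 31.5 and 33 CPM in LSECs and at 0 in all 3 Hepa1-6 libraries. The R-spondin receptor Lgr4 stood at 3.74, 7.29 and 6.74 CPM in LSECs and at 37.1, 35.2 and 35.7 CPM in Hepa1-6 cells (log2 fold change -2.59 ± 0.25 SE, edgeR adjusted p = 1.0e-04). The amplifier and most of its receptor were thus in different cells. Lgr5, named after its values were seen, had 0 counts in LSECs and 159, 159 and 158 CPM in Hepa1-6 cells. Fzd4, the receptor listed for Wnt2, was at 33.8, 112 and 120 CPM in LSECs and 20.5 to 22.3 CPM in Hepa1-6 cells, while its co-receptor Lrp6 did not pass the test, at 72.0, 150 and 151 CPM in LSECs and 171 to 185 CPM in Hepa1-6 cells (edgeR adjusted p = 0.15). Without LSEC replicate 1 Lrp6 was called higher in Hepa1-6 cells at a log2 fold change of -0.24. Wnt5a, a non-canonical Wnt, went the other way, at 0.338 to 0.459 CPM in LSECs and 68.7 to 72.7 CPM in Hepa1-6 cells, with its receptor Ror2 under 1 CPM in both.

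Gas6 and Pros1, the bridging ligands of the TAM receptors, were LSEC-high, and the receptors divided. Gas6 stood at 270, 259 and 259 CPM in LSECs and at 29.3, 28.4 and 31.9 CPM in Hepa1-6 cells, and Pros1 at 982, 1246 and 1267 CPM in LSECs and at 42.7, 41.6 and 38.5 CPM in Hepa1-6 cells. Mertk, which serves clearance of dead cells, stood at 125, 221 and 221 CPM in LSECs and at 1.85, 0.832 and 1.49 CPM in Hepa1-6 cells. Axl, the Gas6 receptor often found in tumours, stood at 38.1, 46.7 and 45.9 CPM in LSECs and at 168, 172 and 184 CPM in Hepa1-6 cells (log2 fold change -1.99 ± 0.12 SE, edgeR adjusted p = 8.1e-06). Each cell thus led for 1 of these 2 receptors. Tyro3 did not pass the test, at 4.10 to 5.53 CPM in LSECs and 5.13 to 5.79 CPM in Hepa1-6 cells.

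Guidance factors gave a pair in each direction. Sema3c was at 0.266, 1.27 and 0.860 CPM in LSECs and 49.4, 47.0 and 44.0 CPM in Hepa1-6 cells, and its receptor Plxnd1 was at 540, 696 and 723 CPM in LSECs and 1.73, 1.16 and 0.971 CPM in Hepa1-6 cells. Sema3f was at 178, 172 and 174 CPM in LSECs and 31.3, 29.7 and 33.5 CPM in Hepa1-6 cells, and the plexin listed for it, Plxna3, was at 0.290, 0.990 and 0.516 CPM in LSECs and 11.2, 13.6 and 14.7 CPM in Hepa1-6 cells. In both pairs the ligand and the plexin were high in opposite cells. Plxnd1 passed the limit of 1 CPM in Hepa1-6 replicates 1 and 2 and just missed it in replicate 3. The Sema3c pair would otherwise count as held by both cells. Nrp2, the Sema3f co-receptor, was at 999 to 1968 CPM in LSECs and 43.6 to 46.4 CPM in Hepa1-6 cells. Ntn4, a basement membrane netrin, was at 81.2, 169 and 182 CPM in LSECs and 1.78 to 2.07 CPM in Hepa1-6 cells, and Unc5b was in both without passing the test.

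Matrix and heparin-binding ligands were divided, 2 of 6 tested being higher in LSECs and 3 in Hepa1-6 cells. Spp1 (osteopontin) stood at 7.70, 2.72 and 5.19 CPM in LSECs and at 55.1, 56.7 and 51.5 CPM in Hepa1-6 cells (log2 fold change -3.37 ± 0.35 SE, edgeR adjusted p = 1.5e-04). Its receptors were divided, with Cd44 at 120 to 128 CPM in LSECs and 398 to 424 CPM in Hepa1-6 cells, and Itgb3 at 154 to 217 CPM in LSECs and 23.6 to 24.2 CPM in Hepa1-6 cells. Anxa1, a resolution mediator, was at 43.5, 34.7 and 30.2 CPM in LSECs and 143, 157 and 144 CPM in Hepa1-6 cells. Its receptor Fpr1, a myeloid gene, was at 138, 107 and 105 CPM in LSECs and 0 in Hepa1-6 cells. The part of macrophage RNA in the Fpr1 level was not tested. Thbs1, a matrix protein that restrains vessels, was at 377, 759 and 673 CPM in LSECs and 1089 to 1176 CPM in Hepa1-6 cells and was called higher in the hepatoma (edgeR adjusted p = 0.018). That call was lost with all 12 libraries in the fit (edgeR adjusted p = 0.058), without Hepa1-6 replicate 3 (edgeR adjusted p = 0.054) and with limma on unfiltered log2(TPM + 1) (limma adjusted p = 0.075). Its receptor Cd36 was at 208 to 263 CPM in LSECs and 0 in Hepa1-6 cells. Grn (progranulin) was higher in LSECs at 811 to 1145 CPM, against 231 to 238 CPM in Hepa1-6 cells.

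Of 6 complement, kinin and coagulation ligands tested, 2 were higher in LSECs and 3 in Hepa1-6 cells, and of 8 receptor subunits 6 were higher in LSECs and 2 in Hepa1-6 cells. C3 stood at 108, 133 and 115 CPM in LSECs and at 705, 685 and 717 CPM in Hepa1-6 cells (log2 fold change -2.55 ± 0.12 SE, edgeR adjusted p = 2.8e-06). C3ar1, the C3a receptor, stood at 89.0, 90.3 and 82.2 CPM in LSECs and at 1.35, 1.34 and 1.15 CPM in Hepa1-6 cells. C3 was thus higher in the hepatoma, and its receptor was LSEC-high but held by both cells. Hc, the gene of complement C5, stood at 6.13, 12.2 and 12.5 CPM in LSECs and at 1.65, 0.782 and 0.904 CPM in Hepa1-6 cells. Its receptor C5ar1 stood at 97.9, 88.8 and 79.0 CPM in LSECs and at 0 in Hepa1-6 cells, so ligand and receptor were both LSEC-high. C3ar1 and C5ar1 are myeloid genes, and the part of macrophage RNA in their LSEC levels was not tested. Plau (urokinase) was at 175, 202 and 196 CPM in LSECs and 0, 0.0504 and 0 CPM in Hepa1-6 cells, and its receptor Plaur, held by both, was at 109 to 159 CPM in LSECs and 70.7 to 73.5 CPM in Hepa1-6 cells. The other plasminogen activator Plat was at 2.97, 3.74 and 3.44 CPM in LSECs and 142, 143 and 135 CPM in Hepa1-6 cells (log2 fold change -5.35 ± 0.13 SE, edgeR adjusted p = 4.6e-07). Proc (protein C) was at 0, 0.138 and 0 CPM in LSECs and 7, 8.04 and 5.92 CPM in Hepa1-6 cells, and its receptor Procr at 127 to 168 CPM in LSECs and 36.0 to 40.8 CPM in Hepa1-6 cells. The Proc log2 fold change was -7.18 with all libraries and -6.57 without LSEC replicate 1.

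Of 7 hormone and plasma carrier ligands tested, 4 were at least 4-fold higher in Hepa1-6 cells and 2, Apoe and Hp, were higher in LSECs by less. Rbp4, the retinol carrier, stood at 1.16, 0.633 and 0.745 CPM in LSECs and at 643, 618 and 596 CPM in Hepa1-6 cells (log2 fold change -9.48 ± 0.24 SE, edgeR adjusted p = 5.8e-07). Its receptor Stra6 stood at 0.483, 0.468 and 0.430 CPM in LSECs and at 673, 702 and 705 CPM in Hepa1-6 cells (log2 fold change -10.53 ± 0.14 SE, edgeR adjusted p = 3.1e-07). Carrier and receptor were both hepatoma transcripts, the only pair with a Hepa1-6 ligand for which Hepa1-6 cells alone held the receptor. Apob and Hpx were higher in Hepa1-6 cells, with log2 fold changes of -6.04 and -5.58. Apoe, made by hepatocytes and macrophages, was at 2027, 1060 and 1100 CPM in LSECs and 564, 528 and 537 CPM in Hepa1-6 cells (log2 fold change 1.38 ± 0.26 SE, edgeR adjusted p = 0.0026).

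Of 21 decoys and inhibitors tested, 10 were higher in LSECs and 6 in Hepa1-6 cells, so that 76.2% were called, near the 74.0% of all tested genes. Il1rn, the interleukin-1 receptor antagonist, stood at 205, 187 and 185 CPM in LSECs and at 7.65, 5.98 and 8.15 CPM in Hepa1-6 cells (log2 fold change 4.74 ± 0.16 SE, edgeR adjusted p = 1.1e-06). Ackr1 and Ackr2, chemokine scavengers, were at 25.5 to 53.1 and 19.8 to 22.5 CPM in LSECs and at 0 and 0 to 0.176 CPM in Hepa1-6 cells. Igfbp7 stood at 2396, 1518 and 1460 CPM in LSECs and at 0.794, 0.882 and 1.08 CPM in Hepa1-6 cells. Il1rn was therefore high in the cell that carried Il1a and Il1b. Hepa1-6 cells led for the activin trap Fst, at 1.23, 1.35 and 1.49 CPM in LSECs and 133, 129 and 106 CPM in Hepa1-6 cells, and for the insulin-like growth factor binders Igfbp1, Igfbp3 and Igfbp4, with log2 fold changes of -9.79, -5.69 and -3.03.

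By estimated transcript levels, 2 starts of Il1rn differed in direction, and neither difference was tested. NM_001039701, which starts at chr2:24345371, had 138, 159 and 160 TPM in LSECs and 0.331, 0.339 and 0.741 TPM in Hepa1-6 cells. NM_031167, which starts 8511 bases upstream, had 3.69, 4.39 and 2.51 TPM in LSECs and 6.00, 4.58 and 6.19 TPM in Hepa1-6 cells, the higher level being in Hepa1-6 cells without overlap. Reads were divided among these overlapping transcripts by estimate, and the nearest NM_031167 values were 4.39 TPM in LSECs and 4.58 TPM in Hepa1-6 cells. Il1rn is known to have secreted and intracellular forms, and which transcript gives which was not determined here. The 250 bases before the starts of NM_001039701 and NM_031167 are shown because these 2 were used in opposite proportions. The window before NM_001159562 had no match to either motif and is not shown.
Il1rn, downstream start, chr2:24345121-24345370, plus strand: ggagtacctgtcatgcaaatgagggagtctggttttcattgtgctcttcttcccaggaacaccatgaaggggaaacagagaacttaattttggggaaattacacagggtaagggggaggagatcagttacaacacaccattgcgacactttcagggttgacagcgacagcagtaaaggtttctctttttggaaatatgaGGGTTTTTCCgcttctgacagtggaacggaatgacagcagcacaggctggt
Il1rn, upstream start, chr2:24336610-24336859, plus strand: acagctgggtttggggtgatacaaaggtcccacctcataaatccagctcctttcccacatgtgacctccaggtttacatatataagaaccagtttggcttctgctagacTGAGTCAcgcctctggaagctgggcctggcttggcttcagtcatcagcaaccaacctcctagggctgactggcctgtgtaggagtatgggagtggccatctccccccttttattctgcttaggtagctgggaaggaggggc
The downstream window has an NF-κB-like match 51 bases before the start, as capitals show, and no AP-1-like match. The upstream window has an AP-1-like match 141 bases before the start and no NF-κB-like match.

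The same gap was then set beside that of the cells grown alone, to see which gaps changed with the shared well. Of 251 listed genes tested in both cultures, 216 were called for the same cell in both, where 65.9% of all genes tested in both were and 70.0% of all genes were called in mono-culture, and Cxcl1 alone was called for opposite cells, as were 0.189% of all genes. The difference of the gap itself, tested as an interaction in edgeR over 12 libraries, was called for 32 listed genes of 278 tested, where 2.35% of all genes were called. Of these 32, the gap moved towards LSECs in co-culture for 24 and towards Hepa1-6 cells for 8. The split by direction over all called genes was not counted, so this split describes the listed genes only. The replicate numbers linked the 2 LSEC cultures. Deviations from the group means correlated at 0.85, 0.547 and 0.643 for same-numbered LSEC samples, against 0.154, 0.062 and -0.0332 in Hepa1-6 cells. Co-cultured LSEC replicate 1 gave -0.674 and -0.79 with lone replicates 2 and 3. The fit that gave 32 takes no account of this link. Taking the replicate number as a block within each cell type gave 93 listed genes and 17.3% of all genes, and all 32 were again called. Genes at 0 in Hepa1-6 cells in both cultures, such as Il1b and Il6, cannot give a useful value in this test.

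The direction of the Cxcl1 call changed between cultures. LSECs had 283, 244 and 236 CPM in co-culture and 22.4, 17.6 and 18.9 CPM alone, while Hepa1-6 cells had 34.6, 38.0 and 32.4 CPM in co-culture and 35.6, 37.8 and 35.7 CPM alone (difference of the gap 3.75 ± 0.17 SE on the log2 scale, edgeR adjusted p = 1.3e-06). The LSEC level alone lay below that of Hepa1-6 cells, and in co-culture it lay above it. Cxcl3 and Cxcl5 kept Hepa1-6 cells as the higher cell while the gap narrowed. LSEC Cxcl3 averaged 35.1 CPM in co-culture and 0.465 CPM alone, against 88.6 CPM in co-cultured and 76.6 CPM in lone Hepa1-6 cells, a difference of the gap of 6.03 ± 0.29 SE (edgeR adjusted p = 2.0e-06). Cxcl2, Ccl9, Csf3, Il1rn and the Tnf receptor Tnfrsf1b also moved towards LSECs. The macrophage marker sum was 3670 to 5052 CPM in co-cultured and 2328 to 3650 CPM in lone LSECs, but its members did not move together. Lyz2 and Adgre1 averaged 1132 and 529 CPM in co-cultured LSECs and 601 and 119 CPM in lone LSECs. Cd5l and Vsig4 averaged 127 and 17.5 CPM in co-cultured LSECs and 427 and 69.3 CPM in lone LSECs. The part of macrophage RNA in the change of these LSEC genes was not tested.

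For Il11 and Ramp3 a gap towards Hepa1-6 cells opened in co-culture. Il11 averaged 0.290 CPM in LSECs and 10.3 CPM in Hepa1-6 cells in co-culture, and 0.548 CPM in LSECs and 0.453 CPM in Hepa1-6 cells grown alone (difference of the gap -5.39 ± 0.42 SE, edgeR adjusted p = 7.5e-05). Ramp3 averaged 2.00 CPM in LSECs and 54.8 CPM in Hepa1-6 cells in co-culture, and 5.77 CPM in LSECs and 3.22 CPM in Hepa1-6 cells grown alone (difference of the gap -5.62 ± 0.45 SE, edgeR adjusted p = 9.3e-05). Neither gap was called in mono-culture (edgeR adjusted p = 0.42 for Il11 and 0.073 for Ramp3), and in the shared well Hepa1-6 cells were far higher for both. Fst and Igfbp3 widened towards Hepa1-6 cells as well, and C3 narrowed, since LSEC C3 averaged 119 CPM in co-culture and 18 CPM alone, against 702 CPM in co-cultured and 328 CPM in lone Hepa1-6 cells.

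**Figure D4:**
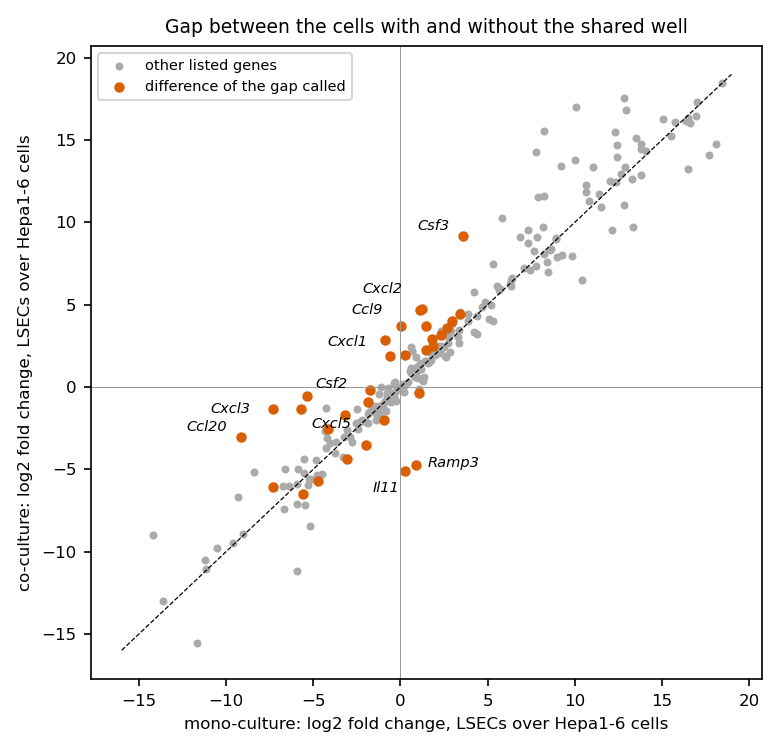
Log2 fold change, LSECs over Hepa1-6 cells, in co-culture (vertical) and mono-culture (horizontal) for 251 listed genes, with the line of equal gaps dashed. The 32 orange points are those whose difference of the gap was called. Cxcl1 lies in the upper left, and Il11 and Ramp3 lie far below the line.

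**Figure D5:**
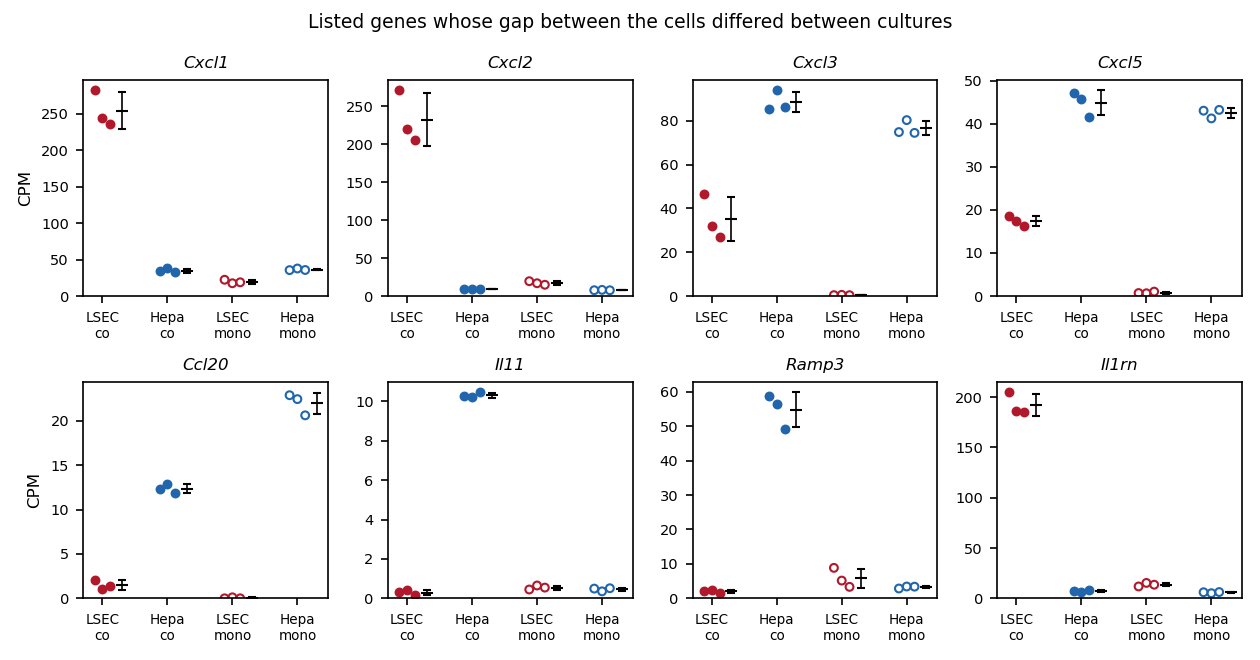
CPM per library of 8 listed genes in the 4 groups (filled, co-culture; open, mono-culture; red, LSECs; blue, Hepa1-6 cells), with bars for mean ± SD of 3. Each vertical axis starts at 0. Cxcl1 in co-cultured LSECs lies between 236 and 283 CPM, above all other groups, and Il11 and Ramp3 rise clear of the rest in co-cultured Hepa1-6 cells alone.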

How the data were processed

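RNA was measured by stranded poly(A) RNA-seq in 12 libraries, 3 per group. Per the submitters' processing notes the authors used HISAT2 and StringTie on mm10; versions, annotation and strand setting are not given in the sources used here. The deposited estimated counts per gene were rounded to whole numbers and tested with edgeR 4.0.16 (TMM scaling, filterByExpr, robust quasi-likelihood F-test, R 4.3.3) over the 6 co-culture libraries, with p-values adjusted by Benjamini-Hochberg over all genes tested. TPM, which the authors computed and deposited, were used for levels per length, for transcripts and in limma 3.58.1; the authors' deposited FPKM were not used for any value. A change of the gap between cultures was tested as an interaction over 12 libraries. Library totals were 32761492 to 43941801 in co-culture. Scripts were tested on simulated data.

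Members and lists were chosen with earlier results of these data known. Genes were named by rule: per family up to 3 ligands each way with the largest called change, no overlap and at least 5 CPM in the higher cell; their receptors; genes with opposite calls in the 2 cultures; and up to 5 decoys each way. Ccl2, Ccl9, Cxcl10, Trf, Mif, Lgr5, Fgfr2, Fgfr4, Fgfr3, Igf1, Hp, Chrd, Osm, Osmr, the genes given as absent and those with a changed gap outside this rule were named after their values were seen. Alternatives were DESeq2 1.42.0, other scalings, filters, pseudocounts and sample sets.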

Additional observations from a re-analysis of the deposited data

Results flagged for a closer look

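The 32 genes below are those whose gap between the cells, as a log2 fold change of LSECs over Hepa1-6 cells, differed between co-culture and mono-culture in the edgeR interaction test over 12 libraries. Each value is the gap in co-culture minus the gap in mono-culture, and a positive value means a move towards LSECs.

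Among chemokines the difference was 3.75 for Cxcl1, 3.55 for Cxcl2, 6.03 for Cxcl3, 4.38 for Cxcl5, 1.58 for Cxcl10 and 1.09 for Cxcl16. It was 0.993 for Ccl2, 3.65 for Ccl9, 6.14 for Ccl20 and 1.22 for Cx3cl1. All 10 moved towards LSECs. Ccl9, a myeloid chemokine, averaged 304 CPM in co-cultured and 22.8 CPM in lone LSECs, against 23.7 CPM in co-cultured and 22.4 CPM in lone Hepa1-6 cells. Ccl20 averaged 1.48 CPM in co-cultured and 0.0377 CPM in lone LSECs, so its value rests on few reads.

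Among other cytokines it was 2.51 for Il18, 4.81 for Csf2 and 5.60 for Csf3, and -5.39 for Il11. Csf2 averaged 1.41 CPM in co-cultured and 0.0591 CPM in lone LSECs, against 2.11 CPM in co-cultured and 2.62 CPM in lone Hepa1-6 cells. The interleukin-1 antagonist Il1rn had 3.50 and the cytokine signal inhibitor Socs3 had 1.69.

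Growth factors and complement gave 0.948 for Vegfc, 1.02 for Pdgfb, 0.802 for Gas6, 0.615 for Sema3f and 1.62 for C3, and -1.29 for Pdgfc and -1.52 for Nrg1. Receptors gave 0.863 for Il4ra, 2.22 for Tnfrsf1b, 0.784 for Ifnar2 and 1.48 for Cd44, and -5.62 for Ramp3 and -1.06 for Axl. Axl averaged 43.6 CPM in co-cultured and 91.5 CPM in lone LSECs, against 175 CPM in co-cultured and 176 CPM in lone Hepa1-6 cells. The binders Fst, Fstl3 and Igfbp3 gave -0.862, -1.43 and -0.928.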

How the results depend on the processing

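Of 173 named genes tested, 159 stayed on the same side of the threshold, in the same direction, under all 16 alternatives. Acvr2a, not called, reversed to -0.019 with upper-quartile scaling and ranged from -0.011 to 0.32 when 1 library was left out, passing the threshold without LSEC replicate 1, and Tyro3, not called, reversed to 0.023 with replicates 2 and 3 only. The cause was not tested. With limma on log2(TPM + 1), with or without the TPM filter, genes called at least 4-fold higher numbered 1795 in LSECs and 1406 in Hepa1-6 cells, against 3161 and 2523, and pairs with an LSEC ligand and a receptor in both cells numbered 21, against 35. A receptor limit of 5 CPM left 20 of those pairs. With a limit of 0.5 CPM, pairs with an LSEC ligand and a receptor in neither cell numbered 14, against 20 at 1 CPM.

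Deviations of same-numbered LSEC and Hepa1-6 samples from their group means correlated at 0.0865, -0.0101 and 0.111. Those of differently numbered samples correlated at -0.155 to 0.148. Such values cannot show whether same-numbered samples shared a well, and the main fit took no pairing. With the replicate block, 6084 genes were called higher in LSECs and 5427 in Hepa1-6 cells, against 6392 and 5701, and 72 and 44 ligands, as without it. For the change of the gap, 32 listed genes became 93 with a replicate block within each cell type, 87 with replicates 2 and 3 only, and 20 to 41 when 1 library was left out. All 32 were called with the block and with replicates 2 and 3 only, and 18 under all 14 alternatives. Floors of 3 counts cover counting error only, while the SEs include the spread between samples, and 3 libraries per group limit the precision.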
